A study of Mus musculus with 4 samples.

Results

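Fibroblast growth factor (FGF) signalling genes were examined in mouse embryonic stem cells with altered Smarca4, which is the ATPase subunit of a chromatin remodelling complex called BAF. The genes were the ligands Fgf4, Fgf5, Fgf8, Fgf15 and Fgf17, the receptors Fgfr1, Fgfr2, Fgfr3 and Fgfr4, and the adaptor gene Frs2. They were chosen by name, with earlier results of these data known, and all 10 were present among the 24428 genes of the count tables. The cells, of strain 129SvEv, were grown in serum with LIF and received no treatment. In both groups wild-type Smarca4 was fused to GFP, and a V5-tagged Smarca4 was also expressed. The V5-tagged protein was wild-type in the group called WT and carried the heterozygous G784E change, which the study's title calls dominant-negative, in the group called G784E. Each group had 2 poly(dT)-captured RNA-seq libraries. The labels do not say whether these were separate cultures or clones, so the p-values measure only how far these libraries differ, and that difference can be technical.

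FGF ligands bind receptor tyrosine kinases at the cell surface together with heparan sulfate. The activated receptor phosphorylates the docking protein Frs2, which recruits Grb2 and Sos and switches on the RAS and ERK kinases. In the mouse blastocyst, Fgf4 is made by the epiblast, Fgfr1 is present throughout the inner cell mass, and Fgfr2 is known as a receptor of the primitive endoderm. Embryonic stem cells in serum are a mixture of states that includes cells expressing endoderm genes.

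The libraries held 6226145 and 8895433 counts in genes for G784E and 7027108 and 10083442 for WT. A count of 1 corresponded to 0.102 to 0.164 CPM (counts relative to library size, scaled between libraries by the TMM method). The lowest level told from 0, taken as 3 counts, was thus 0.305 to 0.491 CPM, counting error alone considered. Reads in 1107 olfactory receptor genes, taken as a background because stem cells are not known to use them, summed to 679 and 623 CPM in replicate 1 of G784E and WT and to 287 and 191 CPM in replicate 2. Smarca4 stood at 3868 and 3580 CPM in G784E and at 2423 and 2553 CPM in WT (log2 fold change 0.58, SE 0.19; edgeR, adjusted p = 0.119), and it was called higher in DESeq2 (adjusted p = 0.00808), limma-voom (adjusted p = 0.0300) and edgeR with upper-quartile scaling (adjusted p = 0.0108). These counts do not separate the alleles and so do not check the labels.

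Among the FGF genes, the receptor gene Fgfr2 fell 3.49-fold and the ligand gene Fgf17 rose 3.87-fold in G784E cells. The main stem cell ligand Fgf4, the main receptor Fgfr1 and the adaptor Frs2 did not pass the test. Of 9 tested members, edgeR's quasi-likelihood test called 1 higher and 1 lower, with a threshold of 0.05 on the p-value adjusted by the Benjamini-Hochberg method. Over all 15763 tested genes, 0.672% were called higher and 1.89% lower, 2.56% in all. The members' median log2 fold change was -0.20, beside 0.00 over all tested genes. The libraries of the groups did not overlap for 3 members that were higher in G784E (Fgf15, Fgf17, Fgfr1) and 3 that were lower (Fgf5, Fgfr2, Frs2), a pattern that 19.4% of all tested genes showed in each direction. The tenth member, Fgf8, had too few counts to be tested. DESeq2 and limma-voom each called 1 member higher and 1 lower as well, where they called 3.2% and 3.49% of all genes with an adjusted p.

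**Figure D1:**
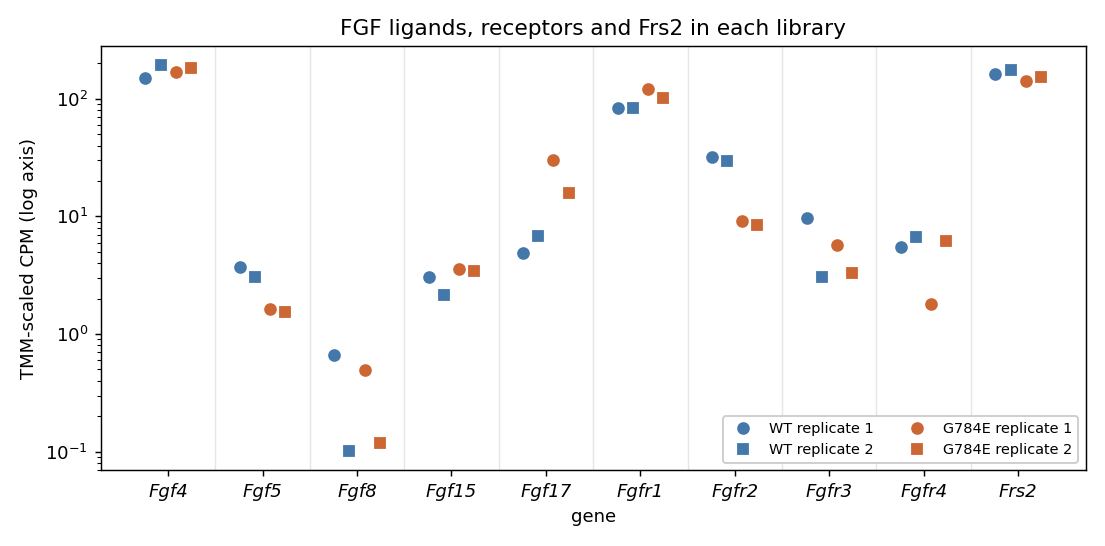
TMM-scaled CPM (log axis) of each FGF gene in each of the 4 libraries, with WT in blue, G784E in orange, replicate 1 as circles and replicate 2 as squares. The G784E points of Fgfr2 (9.16 and 8.48 CPM) lie below both WT points, and those of Fgf17 (30.3 and 15.7 CPM) lie above them.

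Fgf4, the ligand that embryonic stem cells make themselves and that drives their ERK activity, was the most highly expressed ligand. Its level was 170 and 183 CPM in G784E cells, beside 149 and 193 CPM in WT cells. The groups overlapped. The log2 fold change was 0.05 (SE 0.20; edgeR, adjusted p = 1), with a 95% interval of -0.37 to 0.47, which corresponds to 0.772-fold to 1.38-fold. Its sign turned when G784E replicate 2 (-0.08) or WT replicate 1 (-0.13) was left out, and Fgf4 was not called in either case. Fgf4 made up 82.6% and 89.8% of the counts in the 5 ligand genes in G784E and 92.4% and 94.1% in WT.

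Fgf17 belongs to the Fgf8 subfamily of ligands, which patterns the early embryo and the midbrain. Its counts were 185 and 133 in G784E and 37 and 67 in WT, or 30.3 and 15.7 CPM against 4.89 and 6.80 CPM. Both G784E libraries lay above both WT libraries, and the G784E pair differed from each other by more than the WT pair. The mean was 23.0 ± 10.3 CPM in G784E and 5.84 ± 1.36 CPM in WT (SD, n = 2 each), with a log2 fold change of 1.95 (SE 0.34; edgeR, adjusted p = 0.00113). The ratio of G784E to WT was 2.63 on the log2 scale between the libraries numbered 1 and 1.20 between those numbered 2. The olfactory receptor background was also higher in the libraries numbered 1, and its part in this gap was not tested. Per length of exon (known for 1096 of the olfactory receptor genes), Fgf17 stood at 92.8 and 114 times that background in G784E and at 16.3 and 74.1 times in WT. For every 100 reads of Fgf4 there were 17.8 and 8.56 reads of Fgf17 in G784E and 3.27 and 3.53 in WT.

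The other ligands were scarce. Fgf5, a gene of the primed epiblast, had 10 and 13 counts in G784E (1.64 and 1.53 CPM) and 28 and 30 in WT (3.70 and 3.05 CPM). Its G784E libraries lay below both WT libraries, but the log2 fold change of -1.08 (SE 0.92; edgeR, adjusted p = 0.803) had an interval of -2.98 to 0.82. Fgf15, the mouse counterpart of human FGF19, had 22 and 29 counts in G784E (3.60 and 3.42 CPM) and 23 and 21 in WT (3.04 and 2.13 CPM), with a log2 fold change of 0.44 (SE 0.80; edgeR, adjusted p = 0.975). A change of 2-fold in either direction lies within the interval of Fgf15, -1.21 to 2.09, and was not detectable at this depth. Fgf8, a ligand of the primitive streak, had 3 and 1 counts in G784E and 5 and 1 in WT. In no library was Fgf8 above 2.75 times the olfactory receptor background per length, and no fold is given.

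**Figure D2:**
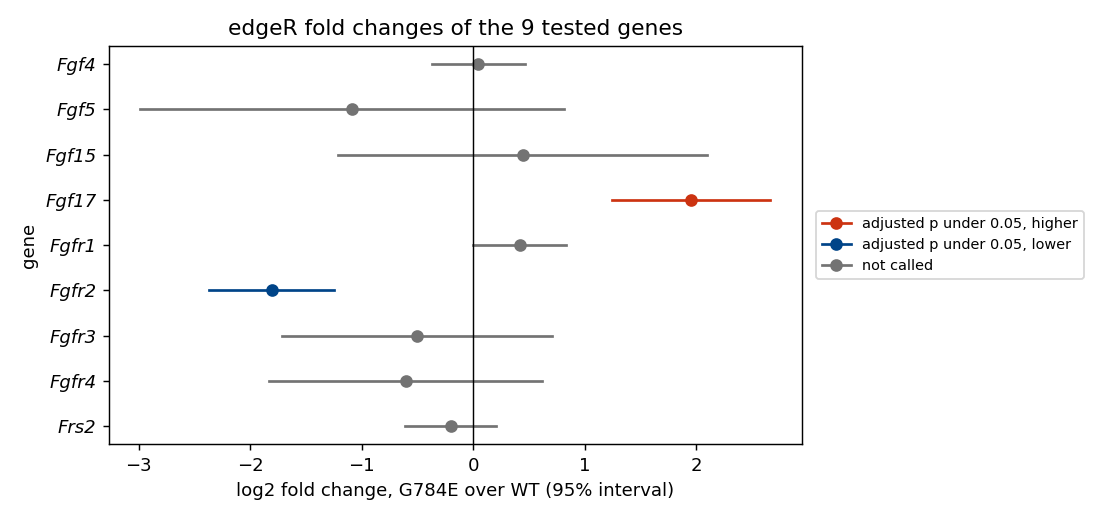
Log2 fold change of G784E over WT for the 9 tested FGF genes (points) with 95% intervals from edgeR (bars); red marks the call of Fgf17 (1.95), blue that of Fgfr2 (-1.80) and grey the genes not called. The intervals of Fgf4 and Frs2 are narrow around 0, and those of Fgf5 and Fgf15 are wide.

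Fgfr2 was the receptor gene that passed the test. It had 56 and 72 counts in G784E and 243 and 291 in WT, or 9.16 and 8.48 CPM against 32.1 and 29.5 CPM. The replicates lay close together in both groups and the groups were far apart. The mean was 30.8 ± 1.80 CPM for WT and fell to 8.82 ± 0.482 CPM for G784E (SD, n = 2 each), a log2 fold change of -1.80 (SE 0.27; edgeR, adjusted p = 0.000176) with an interval of -2.36 to -1.25. The log2 ratio was -1.81 between the libraries numbered 1 and -1.80 between those numbered 2. Per length, Fgfr2 stood at 17.5 and 52.6 times the olfactory receptor background in WT and at 4.59 and 10.1 times in G784E. Gene counts do not separate the epithelial (IIIb) and mesenchymal (IIIc) forms of the receptor, which bind different ligands. In the GENCODE M21 annotation 314 exon bases of Fgfr2 are shared with Ctbp2 on the same strand, and Ctbp2 stood at 263 and 275 CPM in G784E and 291 and 362 CPM in WT (log2 fold change -0.28; edgeR, adjusted p = 0.721).

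The sequences before the start sites of the receptor that fell and of the ligand that did not pass are shown for comparison. Each is the 250 bases before the gene's start in RefSeq (build GRCm38.p6, which differs from the mm9 build of the counts), written 5′ to 3′ on the gene's strand. Fgfr2 is at chr7:130266809-130267058 (minus strand) and Fgf4 at chr7:144861136-144861385 (plus strand). Neither window holds an annotated exon, and capitals mark matches to the motifs listed after them.
Fgfr2: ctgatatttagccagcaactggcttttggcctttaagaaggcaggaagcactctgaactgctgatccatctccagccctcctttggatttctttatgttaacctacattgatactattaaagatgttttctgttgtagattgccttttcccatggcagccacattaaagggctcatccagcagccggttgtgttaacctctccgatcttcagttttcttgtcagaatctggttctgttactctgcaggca
Fgf4: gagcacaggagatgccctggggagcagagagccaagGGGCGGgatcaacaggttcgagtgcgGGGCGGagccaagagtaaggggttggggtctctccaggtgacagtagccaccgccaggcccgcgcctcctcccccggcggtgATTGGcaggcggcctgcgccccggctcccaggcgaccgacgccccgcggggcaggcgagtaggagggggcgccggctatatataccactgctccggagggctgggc
The motifs searched on both strands were the TATA box TATAAA, the CCAAT box CCAAT, the GC box GGGCGG, the GATA factor motif AGATAA, the SOX factor motif CATTGT and the octamer ATTTGCAT. They occurred in 12.4%, 33.8%, 32.7%, 9.99%, 10.7% and 1.60% of 32851 RefSeq windows of the same length. The Fgf4 window held 2 GC boxes and 1 CCAAT box, and no match overlapped another. Only exact letters were matched, so the motifs not found in the Fgf4 window are missing only in the spelling searched. The Fgfr2 window held none of the motifs, which says only that these letters are not in these 250 bases. Its GC content was 44.0% with 2 CpG dinucleotides, and that of Fgf4 was 71.2% with 21, beside a median GC content of 52.4% over all windows. In GENCODE M21, 16 of 17 protein-coding Fgfr2 transcripts start 545 to 4951 bases downstream of this RefSeq start, so the window need not be the promoter used in these cells. Of the 10 members, 6 were matched in the RefSeq table, and Fgf8, Fgf15, Fgf17 and Fgfr1 were not.

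Fgfr1, the receptor that stem cells and epiblast use most, stood at 121 and 102 CPM in G784E and at 84.2 and 82.8 CPM in WT. Both G784E libraries were above both WT libraries. The log2 fold change was 0.42 (SE 0.20; edgeR, adjusted p = 0.433) with an interval of -0.0013 to 0.84, so that Fgfr1 was not called and a rise of up to 1.78-fold lies within the interval. Fgfr3 had 35 and 28 counts in G784E (5.73 and 3.30 CPM) and 74 and 30 in WT (9.77 and 3.05 CPM). The replicate 1 libraries were the higher ones in both groups, as for the olfactory receptor reads, whose part in this was not tested. The log2 fold change of Fgfr3 was -0.50 (SE 0.58, adjusted p = 0.907 in edgeR), with an interval of -1.71 to 0.70. It turned to 0.55 without WT replicate 1. Fgfr4, a receptor of endoderm and liver, had 11 and 52 counts in G784E (1.80 and 6.13 CPM) and 42 and 66 in WT (5.55 and 6.70 CPM). G784E replicate 1 alone was low. The log2 fold change of Fgfr4 was -0.61 (SE 0.59, adjusted p = 0.857 in edgeR), with an interval of -1.83 to 0.62. That interval holds the log2 fold change of Fgfr2, -1.80, so a fall of that size in Fgfr4 is not excluded. The value of Fgfr4 was -0.0061 when G784E replicate 1 was left out and -1.83 when G784E replicate 2 was.

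The receptor genes together drew a similar number of reads in both groups, in other proportions. Their summed level was 138 and 120 CPM in G784E and 132 and 122 CPM in WT. Fgfr2 made up 6.64% (95% exact Clopper-Pearson interval 5.05 to 8.53) and 7.08% (5.58 to 8.83) of the receptor counts in G784E. In WT it made up 24.4% (21.7 to 27.2) and 24.2% (21.8 to 26.7). These intervals cover counting error only, since amplified reads are not independent molecules, and they do not hold the spread between libraries. Fgfr1 made up 87.9% and 85.1% in G784E and 64.0% and 67.8% in WT. For every 100 reads of Fgfr1 there were 7.55 and 8.32 reads of Fgfr2 in G784E and 38.1 and 35.7 in WT, a ratio within each library that needs no scaling between libraries. The ratio was 4.65-fold lower in G784E, by 5.05-fold between the libraries numbered 1 and by 4.28-fold between those numbered 2. Fgfr2 itself fell 3.49-fold. The ratio also holds the higher level of Fgfr1, which was not called (log2 fold change 0.42, adjusted p = 0.433 in edgeR). With 2 libraries against 2, an exact two-sided permutation test of this ratio cannot go below p = 0.333, so it is given as a description.

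**Figure D3:**
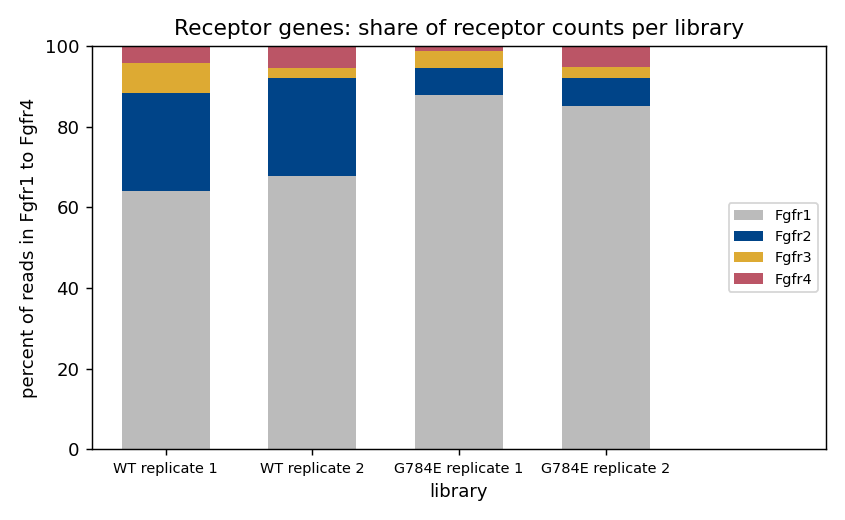
Share of the reads in Fgfr1, Fgfr2, Fgfr3 and Fgfr4 that fell in each receptor gene, in percent, as 1 stacked bar per library. The Fgfr2 segment takes 24.4% and 24.2% in the WT libraries and 6.64% and 7.08% in the G784E libraries.

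Frs2, the docking protein that carries the signal of FGF receptors to Grb2 and Sos, stood at 141 and 154 CPM in G784E and at 164 and 176 CPM in WT. The G784E libraries were slightly lower, without overlap. The log2 fold change was -0.20 (SE 0.20; edgeR, adjusted p = 0.855), and the interval of -0.61 to 0.20 reached from 0.655-fold to 1.15-fold. Frs3, the related adaptor, had 6 and 11 counts in G784E and 14 and 24 in WT (log2 fold change -0.90, SE 1.15; edgeR, adjusted p = 0.93).

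Levels of different genes were compared as CPM per kilobase of merged annotated exons (GENCODE M21). In WT the order of the mean levels was Fgf4 (53.5), Frs2 (19.4), Fgfr1 (8.46), Fgf17 (3.46), Fgfr2 (2.98), Fgfr4 (1.73), Fgf5 (1.35), Fgfr3 (0.895), Fgf15 (0.845) and Fgf8 (0.282). The WT libraries of Fgf17 and Fgfr2 overlapped, as did those of Fgfr3 with Fgf5, Fgf15 and Fgf8. In G784E the order was Fgf4 (55.3), Frs2 (16.8), Fgf17 (13.6), Fgfr1 (11.3), Fgf15 (1.15), Fgfr4 (1.12), Fgfr2 (0.854), Fgf5 (0.633), Fgfr3 (0.630) and Fgf8 (0.225). Fgf17 overlapped there with Frs2 and Fgfr1, Fgfr4 with Fgf15, Fgfr2, Fgf5 and Fgfr3, and Fgf5 with Fgfr3. Fgfr2 thus stood among the scarce genes of the set in G784E and above Fgfr4 in WT. With the longest coding transcript as the length, Fgfr2 stood at 7.15 CPM per kilobase in WT, above Fgf17 at 3.46, and at 2.05 in G784E, beside 1.94 for Fgf15. The order of Fgf17 and Fgfr1 in G784E also turned with this length. Fgfr1 then stood at 24.1 and 20.2 in the G784E libraries, above Fgf17 at 17.9 and 9.28. Its G784E mean of 22.1 was close to that of Frs2 (22.9). Antisense or overlapping transcripts are annotated on the opposite strand over 787, 164 and 998 exon bases of Fgf15, Fgfr1 and Fgfr3. The strand setting of the counts is not given, so reads of these transcripts may be counted in the 3 genes.

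Markers of primitive and extraembryonic endoderm were lower in the libraries in which Fgfr2 was lower. Of 16 tested markers 13 were called lower in edgeR, beside 1.89% of all tested genes. The median log2 fold change of the 16 was -3.31, a 9.89-fold fall. The 18 listed markers summed to 796 and 795 CPM in G784E and to 6556 and 6891 CPM in WT. The endoderm regulator Gata6 stood at 2.29 and 2.59 CPM in G784E against 33.1 and 32.4 CPM in WT (log2 fold change -3.73, SE 0.32; edgeR, adjusted p = 4.05e-08), and Gata4 and Sox17 had log2 fold changes of -3.41 and -4.12. Pdgfra, the growth factor receptor of primitive endoderm, fell 4.40-fold (edgeR, adjusted p = 2.01e-05). Fgfr2 kept 29.7% and 27.5% of its WT mean in the G784E libraries, Pdgfra 17.3% and 27.5%, Gata6 6.99% and 7.91% and Sox17 3.67% and 7.26%. No marker was at 0 in every library. In bulk RNA, fewer cells of a type and less RNA per cell cannot be told apart, and the part of the endoderm genes in the fall of Fgfr2 was not tested. Of 15 epiblast and stem cell markers 0 were called in edgeR, DESeq2 or limma-voom (3 higher and 0 lower at an unadjusted p under 0.05 in edgeR), and they summed to 4140 and 4250 CPM in G784E and 3694 and 4177 CPM in WT. Pou5f1 had a log2 fold change of 0.01 (SE 0.21; edgeR, adjusted p = 1) and Nanog of 0.52 (SE 0.20; edgeR, adjusted p = 0.252). The sign of Pou5f1 turned with no filter (-0.028) and when G784E replicate 2 (-0.22) or WT replicate 1 (-0.20) was left out. In the fibroblast list, 0 of 10 tested markers were called by edgeR, also at an unadjusted p under 0.05, or by DESeq2 or limma-voom, and the 14 listed summed to 161 and 149 CPM in G784E and 161 and 128 CPM in WT.

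**Figure D4:**
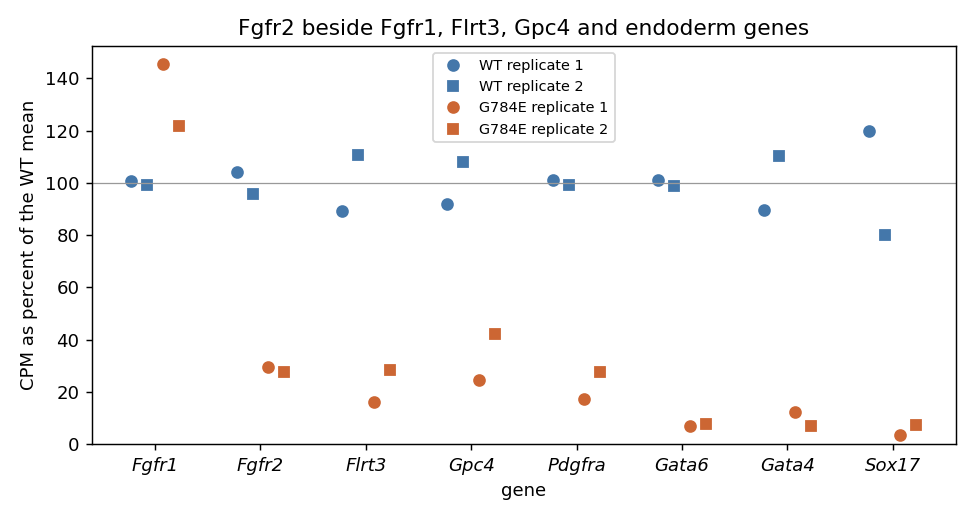
CPM of each library as a percentage of the WT mean for Fgfr1, Fgfr2, Flrt3, Gpc4 and the endoderm genes Pdgfra, Gata6, Gata4 and Sox17 (WT blue, G784E orange; circles replicate 1, squares replicate 2). Fgfr2 lies at 29.7% and 27.5% in the G784E libraries, above Gata6 at 6.99% and 7.91%, while Fgfr1 lies at 145% and 122%.

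Among the pathway lists, that of heparan sulfate proteoglycans and FGF-binding membrane proteins had the most called genes. Of 24 tested co-receptors, decoy receptor and heparan sulfate partners, 5 fell and 0 rose in edgeR. Over all tested genes, 1.89% were called lower and 0.672% higher. In this list 1 gene was higher at an unadjusted p under 0.05 in edgeR, while DESeq2 and limma-voom called 0 higher. The median log2 fold change of the list was -0.30. Flrt3, a membrane protein that binds FGF receptors and is known in visceral endoderm, stood at 11.9 and 21.3 CPM in G784E and 66.8 and 82.6 CPM in WT (log2 fold change -2.15, SE 0.26; edgeR, adjusted p = 9.10e-06). The glypican genes Gpc6 and Gpc4, which encode membrane-anchored heparan sulfate carriers, fell 3.70-fold (29.7 ± 2.01 to 8.08 ± 1.76 CPM; SD, n = 2 each) and 2.97-fold (53.6 ± 6.16 to 17.9 ± 6.74 CPM). The syndecan gene Sdc4 fell 2.12-fold, from 187 and 168 CPM in WT to 75.8 and 91.6 CPM in G784E (edgeR, adjusted p = 0.00251). Gpc3, named after its value was seen, was 1.91-fold lower (edgeR, adjusted p = 0.0411), and it was not called in DESeq2 (adjusted p = 0.103), with RLE scaling (edgeR, adjusted p = 0.0512) or when edgeR left out G784E replicate 1 (adjusted p = 0.0867), WT replicate 1 (0.469) or WT replicate 2 (0.323). Klb, which encodes the co-receptor beta-Klotho and was named after its values were seen, had 10 and 8 counts in G784E and 47 and 77 in WT (log2 fold change -2.45, SE 0.69; edgeR, adjusted p = 0.0619). It was not called in edgeR with all libraries, but was called lower in DESeq2 (adjusted p = 0.0407), in edgeR with no filter (adjusted p = 0.0404) and without G784E replicate 1 (-2.88, adjusted p = 0.0134), and limma-voom did not call it (adjusted p = 0.216). The endoderm markers were lower in the same libraries, and their part in these differences was not tested. The genes Ext1, Ext2, Ndst1, Hs2st1, Hs6st1, Sulf1 and Sulf2, whose enzymes build or trim heparan sulfate, were not called with all libraries in edgeR. Without G784E replicate 2, Ext2 was called lower (-1.11; edgeR, adjusted p = 0.00189), against a log2 fold change of -0.35 with all libraries. The decoy receptor gene Fgfrl1 had a log2 fold change of 0.16 (SE 0.53; edgeR, adjusted p = 0.998), which turned to -0.22 without G784E replicate 2 and -0.30 without WT replicate 2.

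Among 17 further ligand genes, 10 could be tested, and 1 fell while 0 rose in edgeR, beside 1.89% and 0.672% of all tested genes. At an unadjusted p under 0.05 in edgeR 1 was higher, and DESeq2 and limma-voom called 0 higher. Fgf10, which signals through the IIIb form of Fgfr2, had 13 and 19 counts in G784E and 85 and 97 in WT, or 2.13 and 2.24 CPM against 11.2 and 9.85 CPM. It fell 4.79-fold (log2 fold change -2.26, SE 0.49; edgeR, adjusted p = 0.00918). Limma-voom did not call Fgf10 (-2.21, adjusted p = 0.0669). Nor did edgeR when WT replicate 1 (-2.17, adjusted p = 0.184) or, in its place, WT replicate 2 (-2.32, adjusted p = 0.151) was left out. Fgf1 stood at 15.5 and 5.65 CPM in G784E and 4.75 and 1.52 CPM in WT (log2 fold change 1.76; edgeR, adjusted p = 0.112). It is named because it was called in edgeR without G784E replicate 2 (2.26, adjusted p = 0.00122) and without WT replicate 1 (2.76, adjusted p = 0.00815). Its value was 0.86 without G784E replicate 1 (edgeR, adjusted p = 0.787) and 1.17 without WT replicate 2 (edgeR, adjusted p = 0.671), and replicate 1 was the higher library in both groups. Fgf16 had 28 counts in G784E replicate 1 and 0 in the other libraries and was not tested.

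Downstream of the receptors, Gab1 rose and the relay from Grb2 to ERK was otherwise not called. Of 26 tested adaptor and RAS-ERK genes, 1 rose and 0 fell in edgeR, beside 0.672% and 1.89% of all tested genes. At an unadjusted p under 0.05 in edgeR, and in DESeq2 and limma-voom, 0 were lower as well. The median log2 fold change was 0.02. Gab1, a docking protein recruited through Grb2 that leads to PI3 kinase and Shp2, stood at 686 and 813 CPM in G784E and 320 and 386 CPM in WT. It rose 2.12-fold (log2 fold change 1.09, SE 0.20; edgeR, adjusted p = 0.00217), and the call was lost in edgeR without WT replicate 1 (0.95, adjusted p = 0.071).

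Genes that ERK induces, or that feed back on it, were mostly not called. Of 17 tested, 1 fell and 0 rose in edgeR, beside 1.89% and 0.672% of all tested genes. The median log2 fold change was 0.00. At an unadjusted p under 0.05 in edgeR 4 were higher, and DESeq2 and limma-voom each called 2 higher. The ERK phosphatase gene Dusp4 was the gene that fell, from 41.1 and 40.5 CPM in WT to 22.1 and 11.3 CPM in G784E (2.47-fold; edgeR, adjusted p = 0.00719). The ETS factor gene Etv5 stood at 263 and 240 CPM in G784E and 148 and 163 CPM in WT (log2 fold change 0.70, SE 0.20; edgeR, adjusted p = 0.0651; DESeq2, adjusted p = 0.00808; limma-voom, adjusted p = 0.0134). Spred2, an inhibitor of RAS signalling, had a log2 fold change of 0.73 (SE 0.20; edgeR, adjusted p = 0.0527; DESeq2, adjusted p = 0.0153; limma-voom, adjusted p = 0.0111). Etv5 and Spred2 also passed when edgeR used upper-quartile scaling (adjusted p = 0.0167 and 0.0212) or the stricter filter (adjusted p = 0.0391 and 0.034). Spry4, a feedback inhibitor of receptor tyrosine kinases, stood at 360 and 368 CPM in G784E and 189 and 317 CPM in WT (log2 fold change 0.52, SE 0.22; edgeR, adjusted p = 0.322). Etv4 had a log2 fold change of 0.61 (SE 0.22; edgeR, adjusted p = 0.203). The ERK phosphatase gene Dusp6 had one of 0.19 (SE 0.21; edgeR, adjusted p = 0.9), which was -0.029 without WT replicate 1.

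**Figure D5:**
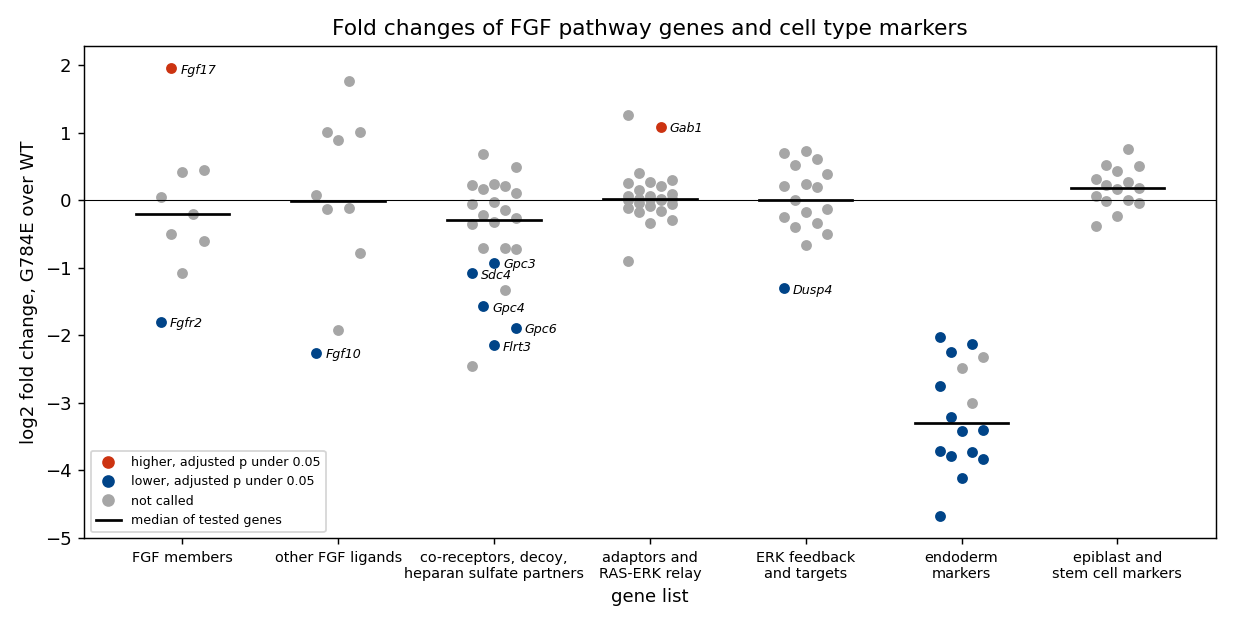
Log2 fold change (G784E over WT) of every tested gene in the FGF pathway lists and of endoderm and epiblast markers; red and blue points passed the edgeR test, grey points did not, and black bars are list medians. The median of the endoderm markers lies at -3.31 and those of the RAS-ERK and ERK target lists at 0.02 and 0.00.

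The genes whose levels followed Fgfr2 most closely over the 4 libraries, by the root mean square difference of centred log2 CPM among 9913 genes with a mean of at least 5 CPM, were Plbd1 (0.0285), Aim2 (0.0475) and Ubash3b (0.0644). For Fgf17 they were Cntfr (0.0877), Rln3 (0.158) and Rspo1 (0.167), a wider distance than for Fgfr2. These distances rest on 4 libraries in 2 groups and are a description.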

How the data were processed

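The 4 libraries were grouped and numbered by their labels. Those labels list a genomic library source, while their protocol is one for mRNA. The authors deposited a table of raw gene counts for each library. Build mm9 and the tools HTSeq, DESeq2, Bowtie2 (2.1.0) and CASAVA (1.8.2) are named, per the submitters' processing notes. The sources used here give no annotation, counting mode or strand setting. Summary rows, 83.3% to 88.7% of each table and mostly reads not placed uniquely, were left out, so reads shared by close gene copies are missing.

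Genes were filtered with filterByExpr (minimum count 10, total 15), which kept 15763 genes, and tested with edgeR 4.0.16 (R 4.3.3; TMM scaling, quasi-likelihood test, group alone, 2 residual degrees of freedom, Benjamini-Hochberg adjustment over all tested genes, threshold 0.05). The SE is the log2 fold change divided by the square root of F, and folds are from the fitted log2 fold change. The common biological coefficient of variation was 0.317. The alternatives tried were upper-quartile and RLE scaling, a stricter filter (1 CPM in 2 libraries, 50 counts), no filter, DESeq2 1.42.0, limma-voom (limma 3.58.1), a replicate block and each library left out (its lone partner is then taken to vary as the other group does). On simulated counts for the 15763 genes of this comparison, edgeR recovered 40.0% of genes changed 2-fold and 63.0% of those changed 4-fold. The changed genes, 100 at each fold, were drawn from genes with a mean of at least 1 CPM. Of the 110 genes called there, 6.36% had not been changed. The chi-square per degree of freedom between replicates was 15.4 (G784E) and 9.22 (WT), so within each group neither library was a copy of the other.

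Named genes were all members, up to 4 called genes per pathway list and direction with the smallest adjusted p, Fgfrl1, Frs3, Spry4, Dusp6, Etv4, Etv5, Smarca4, Gata6, Gata4, Pdgfra, Sox17, Nanog and Pou5f1, and for each called member the 3 nearest profiles, leaving out predicted-gene, clone and pseudogene symbols. Gpc3, Klb, Ext2, Fgfbp1, Fgf1, Fgf16, Spred2 and Ctbp2 were named after their values were seen. The own values of 1 marker gene are not reported here. The members and lists were chosen with earlier results of these data known. Of the marker lists, primed epiblast had 1 of 6 tested genes higher and 1 lower in edgeR, and trophoblast had 1 of 7 lower. Over all tested genes, edgeR called 0.672% higher and 1.89% lower. Primitive streak (2 tested) and neural (4 tested) had none called in edgeR, DESeq2 or limma-voom. At an unadjusted p under 0.05, 1 neural gene was higher in edgeR.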

Additional observations from a re-analysis of the deposited data

How the results depend on the processing

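Fgfr2 and Fgf17 kept their direction and their call in all 10 alternatives other than the replicate block and also under the block. In those alternatives that kept all 4 libraries, the adjusted p ran from 5.04e-07 to 0.00225 for Fgfr2 and from 1.51e-05 to 0.0135 for Fgf17. These ends came from edgeR with no filter and with upper-quartile scaling. Over all 10 alternatives, the log2 fold change of Fgfr2 ran from -1.86 to -1.75 and that of Fgf17 from 1.41 to 2.29. No other member was called in any of them. The sign of Fgf4 turned when G784E replicate 2 (-0.08) or WT replicate 1 (-0.13) was left out, and that of Fgfr3 when WT replicate 1 was (0.55). Outside the members, signs turned without G784E replicate 2 for Fgfrl1 (-0.22) and Pou5f1 (-0.22), without WT replicate 1 for Dusp6 (-0.029) and Pou5f1 (-0.20), without WT replicate 2 for Fgfrl1 (-0.30) and with no filter for Pou5f1 (-0.028). The highest and lowest values with a library left out were 0.27 and -0.13 for Fgf4, 0.55 and -1.10 for Fgfr3, 0.89 and -0.30 for Fgfrl1, 0.47 and -0.029 for Dusp6 and 0.27 and -0.22 for Pou5f1. The log2 ratio of Fgfr2 to Fgfr1, -2.22 between the groups, was -2.34 for replicate 1 against replicate 1 and -2.10 for replicate 2 against replicate 2. The causes of these moves were not tested.

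Of all tested genes, 106 were higher and 298 lower. Limma-voom called 186 higher. With a library left out, the counts ran from 26 to 161 higher and from 150 to 579 lower. The called genes among the further ligands ran from 0 to 2 higher and 0 to 1 lower, with 1 higher under no filter (Fgf16, seen in 1 library) and 0 lower in limma-voom. Those among adaptors ran from 0 to 1 higher. Among ERK targets, upper-quartile scaling, the stricter filter, DESeq2 and limma-voom each called 2 higher, limma-voom called 2 lower, and leaving out a library gave 1 to 2 lower.

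Same-numbered libraries deviated together (correlation 0.487 over tested genes). Their olfactory receptor reads were also alike, at 679 and 623 CPM in the libraries numbered 1 and 287 and 191 CPM in those numbered 2. The libraries numbered 1 also had fewer counts in genes, 6226145 (G784E) and 7027108 (WT), beside 8895433 and 10083442 in those numbered 2. Summary rows took 88.3% and 88.7% of the tables numbered 1 and 83.7% and 83.3% of those numbered 2. The labels do not say what a number shares, and with 2 pairs the source of this likeness was not tested. The main test used the group alone and left this pairing out. With the replicate block, 546 genes were called higher and 658 lower, with 1 higher among the further ligands (Fgf1) and 4 higher (Spry4, Spred2, Etv4, Etv5) and 2 lower (Dusp4, Phlda1) among ERK targets. The block also called Smarca4 (0.58, adjusted p = 1.59e-05) and Nanog (0.52, adjusted p = 0.0051) higher and, among co-receptors and heparan sulfate partners, Klb (-2.47, adjusted p = 0.0054) and Fgfbp1 (-1.39, adjusted p = 0.0288) lower, none of them called in edgeR with all libraries, the main settings and no block. Fgfbp1 was also called without G784E replicate 2 (-2.01, adjusted p = 0.011). Depth limits Fgf5, Fgf8 and Fgf15, with at most 30 counts in a library.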
